A study of Danio rerio with 20 samples.

Results

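The Z-disc, caveolar and cofactor genes fhl1a, cavin4a, smpx, myoz2b, xirp1 and vgll2b are 6 muscle genes that are not themselves contractile proteins. They were chosen by name because their levels fell in zebrafish embryos exposed to cyclopamine in this series. They are 6 of the 14657 genes on the array, each with 1 probe, and all 6 passed the filter on dim probes that left 11433 genes for testing. Because the comparison of cyclopamine with ethanol chose them, it is described here without a test. SANT-2 and GANT-61 were tested, although against the ethanol arrays that the choice had already used. The difference of SANT-2 from GANT-61 is between arrays that the choice did not use, although its error was estimated from the spread within all 4 groups.

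Zebrafish embryos were exposed from 0.5 to 24 h after fertilization in 4 groups of 5 independent replicates, with 100 embryos for each treatment in each replicate. The control group received 0.1% ethanol and the others cyclopamine, SANT-2 or GANT-61, each at 10 µM, in a solvent that is not given in the sources used here. RNA of whole embryos was labelled with Cy3 and hybridised to 1-colour Agilent arrays, 1 per replicate, spread over 4 slides that each held all 4 groups. A level is given as the log2 of the spot's intensity minus the log2 of the array's 75th percentile, so that 0 marks a spot brighter than 75% of those on its array.

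Between 10038 and 12610 probes were well above background on each array. The 75th percentile of the signal ran from 565 to 762 on the arrays of slide 2 and from 1125 to 2060 on the other slides. No probe was saturated. Markers of slow and fast muscle, heart, notochord, neurons, epidermis and red blood cells passed the filter in these whole embryos, with 3 to 11 genes per list. Precision is limited by the 5 arrays per group.

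Hedgehog proteins secreted by the notochord and floor plate bind Patched, which then releases Smoothened and, through it, the Gli transcription factors. Cyclopamine and SANT-2 are antagonists of Smoothened, and GANT-61 was described as an inhibitor of Gli. In the zebrafish somite, Hedgehog signalling directs the adaxial cells beside the notochord to become slow muscle, while most other somite cells form fast muscle. Within a muscle fibre, the Z-disc anchors the thin filaments of neighbouring sarcomeres, and caveolae are small inward folds of the surface membrane.

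Under cyclopamine all 6 genes had lower mean levels than in ethanol, by 8.91-fold for fhl1a, 5.21-fold for cavin4a, 3.50-fold for smpx, 2.66-fold for myoz2b, 1.74-fold for xirp1 and 1.73-fold for vgll2b. For each of them, every cyclopamine array lay below every ethanol array. Over all genes tested, 0.840% were called lower under cyclopamine at an adjusted p under 0.05, and in 1.40% all cyclopamine arrays lay below all ethanol arrays. For 4 of the 6 every cyclopamine array lay below all 15 other arrays, as in 0.743% of all genes, the exceptions being cavin4a and vgll2b. These shares are given for scale only, since the same contrast chose the genes. In SANT-2 and GANT-61 embryos none of the 6 was called different from ethanol. Over all genes 0.00% and 0.157% were called in these comparisons, so a count of 0 among 6 is near the background.

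**Figure D1:**
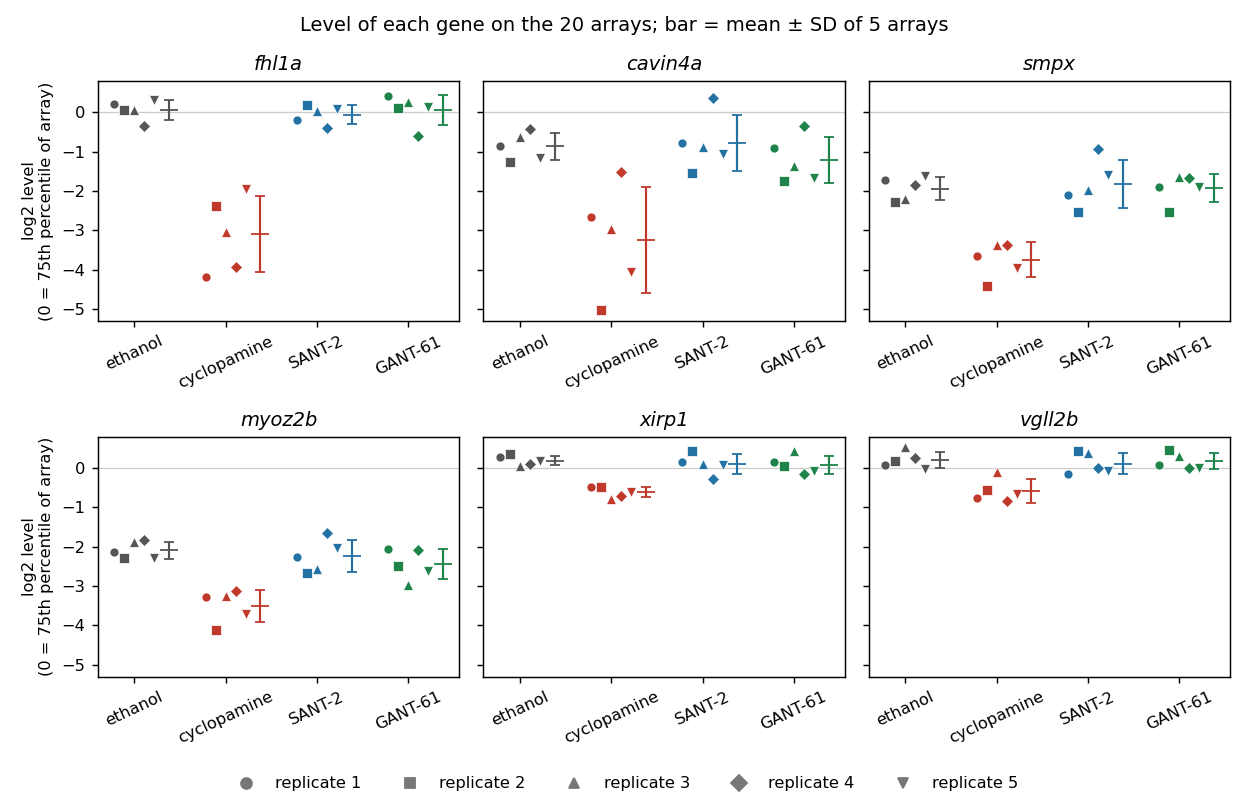
Level of each of the 6 genes on the 20 arrays, as log2 relative to the 75th percentile of each array (vertical axis), by treatment group (horizontal axis). Symbols mark the replicate numbers and the bars give the mean ± SD of 5 arrays. All cyclopamine points lie below the ethanol points, and those of cavin4a spread from -5.03 to -1.51.

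The Z-disc genes come first. fhl1a encodes a LIM-only scaffold protein of striated muscle, and mutations of human FHL1 cause myopathies. In the 5 ethanol replicates, in numerical order, the log2 level of fhl1a was 0.20, 0.06, 0.07, -0.34 and 0.30. Under cyclopamine it was -4.18, -2.39, -3.04, -3.93 and -1.94. The highest cyclopamine array was thus far below the lowest ethanol array, and the cyclopamine arrays also differed widely among themselves. Under SANT-2 the log2 level was -0.18, 0.20, 0.04, -0.41 and 0.07. Under GANT-61 it was 0.41, 0.11, 0.25, -0.60 and 0.13. Both sets overlapped that of ethanol, and replicate 4 was the lowest array in ethanol, SANT-2 and GANT-61 alike.

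The difference of fhl1a between cyclopamine and ethanol was -3.16 ± 0.33 (SE, n = 5 per group) on the log2 scale and ran from -3.59 to -2.24 within the 4 slides. The difference from ethanol was -0.12 for SANT-2 (95% interval -0.80 to 0.57; adjusted p = 1.00) and 0.0011 for GANT-61 (-0.68 to 0.69; adjusted p = 0.999). The order of the group means was GANT-61 and ethanol, both at 0.06, then SANT-2 at -0.06 and cyclopamine at -3.10. The first 3 did not differ beyond their spread.

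smpx encodes a small protein of muscle that is mutated in human X-linked hearing loss and distal myopathy. Its log2 level was -1.73, -2.28, -2.21, -1.86 and -1.61 in ethanol. Under cyclopamine it was -3.64, -4.41, -3.37, -3.36 and -3.95. The groups did not overlap, and the lowest array of each was replicate 2. Under SANT-2 the log2 level was -2.11, -2.55, -1.97, -0.92 and -1.59. Under GANT-61 it was -1.89, -2.53, -1.64, -1.66 and -1.89. Replicate 2 was again lowest in both, and replicate 4 of SANT-2 stood above all other arrays. Between cyclopamine and ethanol smpx differed by -1.81 ± 0.27 (SE) on the log2 scale, and by -2.34 to -1.15 within slides. The difference from ethanol was 0.11 for SANT-2 (95% interval -0.45 to 0.67; adjusted p = 1.00) and 0.02 for GANT-61 (-0.54 to 0.58; adjusted p = 0.995). Group means ran from -1.83 in SANT-2 through -1.92 in GANT-61 and -1.94 in ethanol to -3.75 in cyclopamine, and the first 3 did not differ beyond their spread.

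myoz2b encodes a myozenin, a Z-disc protein that in mammals binds alpha-actinin and the phosphatase calcineurin. In ethanol its log2 level was -2.13, -2.30, -1.89, -1.84 and -2.30. Under cyclopamine it was -3.29, -4.13, -3.26, -3.13 and -3.70. The groups did not overlap, and the difference of -1.41 ± 0.22 (SE) varied little between the 4 slides, at -1.49 to -1.29. Under SANT-2 the log2 level was -2.26, -2.67, -2.57, -1.65 and -2.05. Under GANT-61 it was -2.07, -2.49, -2.97, -2.10 and -2.63. Of the 5 GANT-61 arrays, 3 lay below the ethanol range, but the difference of -0.36 had a 95% interval from -0.82 to 0.11 (adjusted p = 0.830). For SANT-2 the difference was -0.14 (-0.61 to 0.32; adjusted p = 1.00). The means fell in the order ethanol (-2.09), SANT-2 (-2.24), GANT-61 (-2.45) and cyclopamine (-3.50), with no difference beyond the spread among the first 3.

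xirp1 encodes a Xin protein, which binds actin filaments and is found in vertebrate muscle where filaments attach to the membrane. Its log2 level in ethanol was 0.27, 0.34, 0.05, 0.11 and 0.17. Under cyclopamine it was -0.48, -0.49, -0.78, -0.71 and -0.61. The groups did not overlap, and the difference was -0.80 ± 0.13 (SE), at -0.83 to -0.79 within slides. Under SANT-2 the log2 level was 0.14, 0.42, 0.10, -0.29 and 0.08. Under GANT-61 it was 0.14, 0.05, 0.43, -0.16 and -0.09. Both sets overlapped that of ethanol, with replicate 4 the lowest array of each. The difference from ethanol was -0.10 for SANT-2 (95% interval -0.37 to 0.18; adjusted p = 1.00) and -0.11 for GANT-61 (-0.39 to 0.16; adjusted p = 0.914). Group means ran from 0.19 in ethanol through 0.09 in SANT-2 and 0.07 in GANT-61, which did not differ beyond their spread, to -0.62 in cyclopamine.

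Of the caveolar genes, cavin4a encodes a muscle member of the cavin family, the proteins that coat caveolae. Its log2 level in ethanol was -0.85, -1.26, -0.64, -0.43 and -1.17. Under cyclopamine it was -2.67, -5.03, -2.98, -1.51 and -4.06. The groups did not overlap, but the highest cyclopamine array, replicate 4, came close to the lowest of ethanol. Under SANT-2 the log2 level was -0.77, -1.55, -0.89, 0.37 and -1.07. Under GANT-61 it was -0.91, -1.74, -1.36, -0.35 and -1.67. The cyclopamine arrays overlapped both of these groups through replicate 4. In all 4 groups replicate 2 was the lowest array, replicate 5 the second lowest and replicate 4 the highest.

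Between cyclopamine and ethanol cavin4a differed by -2.38 ± 0.49 (SE) on the log2 scale, and by -2.89 to -1.09 within slides. The SD of its cyclopamine arrays was 1.35, larger than that of 98.7% of the genes tested, and the SD of fhl1a there, 0.96, was larger than that of 94.5%. The corresponding SD of xirp1 was 0.13, larger than that of 6.94% of genes. For cavin4a the SD was also large in SANT-2 (0.71, above 91.0% of genes) and GANT-61 (0.58, above 90.2%). In ethanol it was 0.35, above 58.8%. From ethanol, cavin4a differed by 0.08 under SANT-2 (95% interval -0.95 to 1.12; adjusted p = 1.00) and by -0.34 under GANT-61 (-1.37 to 0.69; adjusted p = 0.943). Its intervals were the widest of the set. The means ran from -0.78 in SANT-2 through -0.87 in ethanol and -1.21 in GANT-61, which did not differ beyond their spread, to -3.25 in cyclopamine.

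The cofactor vgll2b encodes a vestigial-like protein, which has no DNA-binding domain of its own and acts through TEAD transcription factors. In ethanol its log2 level was 0.08, 0.18, 0.52, 0.26 and -0.03. Under cyclopamine it was -0.77, -0.55, -0.10, -0.85 and -0.67. The highest cyclopamine array, replicate 3, lay just below the lowest ethanol array, and replicate 3 was also the highest in ethanol. Under SANT-2 the log2 level was -0.16, 0.43, 0.37, -0.0046 and -0.09. Under GANT-61 it was 0.06, 0.46, 0.29, 0.0012 and 0.0041. No GANT-61 array left the ethanol range. The difference of cyclopamine from ethanol was -0.79 ± 0.16 (SE), and -1.11 to -0.62 within slides.

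The difference of vgll2b from ethanol was -0.09 for SANT-2 (95% interval -0.43 to 0.24; adjusted p = 1.00) and -0.04 for GANT-61 (-0.37 to 0.30; adjusted p = 0.981). With slide as a block the SANT-2 difference became -0.19 ± 0.09 (SE), lower on 4 of 4 slides, with an unadjusted p of 0.0435 and an adjusted p of 1.00. The means ran from 0.20 in ethanol through 0.16 in GANT-61 and 0.11 in SANT-2, which did not differ beyond their spread, to -0.59 in cyclopamine.

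All 120 values of the 6 genes were well above background by the scanner software. The dimmest was cavin4a on cyclopamine replicate 2, at an intensity of 38.4. For dim spots the size of a fold depends on how background is removed and on any constant added before the log. The normexp alternative added an offset of 50 to each intensity, which by itself makes folds of dim spots smaller. The parts of the offset and of the background in the values below were not tested. With a normexp correction using the median background of each array, the fall under cyclopamine was 5.81-fold for fhl1a in place of 8.91-fold, and 3.42-fold for cavin4a in place of 5.21-fold. It was 2.43-fold for smpx in place of 3.50-fold and 1.96-fold for myoz2b in place of 2.66-fold. In whole embryos, fewer cells of a type and less RNA per cell cannot be told apart.

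The compounds were compared at the same concentration and time. None of the 6 genes was called in SANT-2 against ethanol, in GANT-61 against ethanol or in SANT-2 against GANT-61 (limma, adjusted over 11433 genes), and none had an unadjusted p under 0.05. Over all genes the calls were 0.00%, 0.157% and 0.262%, and 128, 719 and 428 genes had an unadjusted p under 0.05, so a count of 0 among 6 is near the background. With no differences, a share of about 0.05 of the 11433 genes would have such a p. Counts of 128 and 428 are below that share, so the p-values of this fit may be too large in both SANT-2 comparisons. A lack of calls there says little. All 12 intervals of SANT-2 and GANT-61 against ethanol held 0. The fit pools the spread of all groups, which is largest under cyclopamine for fhl1a and cavin4a. Fitting SANT-2 and ethanol alone gave an SE of 0.16 for fhl1a in place of 0.33 (95% interval -0.47 to 0.24) and of 0.32 for cavin4a in place of 0.49 (-0.62 to 0.79). Fitting GANT-61 and ethanol alone gave an SE of 0.20 for fhl1a (-0.43 to 0.44) and of 0.28 for cavin4a (-0.94 to 0.27). SANT-2 and GANT-61 fitted alone gave an SE of 0.20 for fhl1a (-0.55 to 0.31). No gene of the 6 was called in these fits either. Both comparisons used the same ethanol arrays.

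SANT-2 minus GANT-61 was -0.12 (95% interval -0.80 to 0.57) for fhl1a, 0.42 (-0.61 to 1.45) for cavin4a and 0.09 (-0.47 to 0.66) for smpx. It was 0.21 (-0.26 to 0.68) for myoz2b, 0.02 (-0.26 to 0.29) for xirp1 and -0.06 (-0.39 to 0.28) for vgll2b, with an adjusted p of 1.00 for each gene. The largest of these, for cavin4a, was positive on all 4 slides, at 0.14 to 1.22. In the same comparison 11 of 11 fast muscle markers had a positive value, with a median of 0.58 and none called. The lowest, tnni2a.1 at 0.015, passed the filter on dim probes through SANT-2 alone, which favours a positive value. It was well above background on 4 SANT-2, 3 GANT-61, 1 ethanol and 1 cyclopamine arrays. Over all genes the median was -0.01 and 53.6% had a negative value. Medians of the slow muscle, heart, neuron and red blood cell markers were also positive, at 0.09 to 0.21, and those of notochord and epidermis negative. The part of the fast muscle markers in the value of cavin4a was not tested. Against ethanol the median of the fast muscle markers, tnni2a.1 included, was 0.18 under SANT-2 and -0.51 under GANT-61. Against the same cyclopamine arrays, fhl1a was 8.22-fold higher in SANT-2 and 8.92-fold higher in GANT-61, and vgll2b 1.62-fold and 1.69-fold higher. These last values are given without a test.

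**Figure D2:**
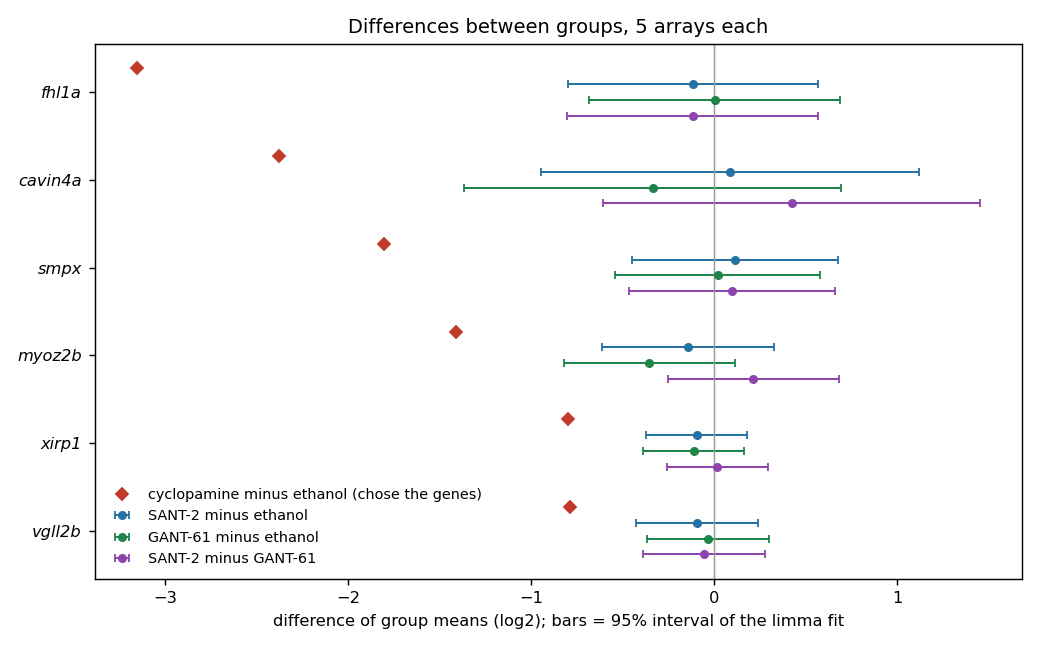
Difference of group means on the log2 scale (horizontal axis) for each gene, from 5 arrays per group, with 95% intervals of the limma fit as bars. The diamonds, which chose the genes, show the cyclopamine difference and run from -3.16 to -0.79, and all 18 intervals for SANT-2 and GANT-61 hold 0.

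Across the 20 arrays the levels of the 6 genes, centred on the mean of each slide, were correlated in all 15 pairs, with r from 0.62 to 0.96. The cyclopamine arrays weigh heavily in these values. Since the genes were chosen for their fall on those arrays, positive r over the 20 arrays follows largely from the choice. Over the 15 arrays without cyclopamine the genes fell into sets, which were noticed in these values and are given as a description. cavin4a, smpx and myoz2b were correlated with each other at r from 0.42 to 0.85. fhl1a, xirp1 and vgll2b were correlated with each other at r from 0.60 to 0.66. The 9 pairs between the sets all had negative r, from -0.65 to -0.02. Without centring on slides these 9 pairs ranged from -0.70 to -0.28, the pairs of the first set from 0.43 to 0.80 and those of the second from 0.23 to 0.62. The lowest of the second set was fhl1a with vgll2b, at 0.23. The arrays share slides and, between some groups, replicate numbers whose values deviate together.

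**Figure D3:**
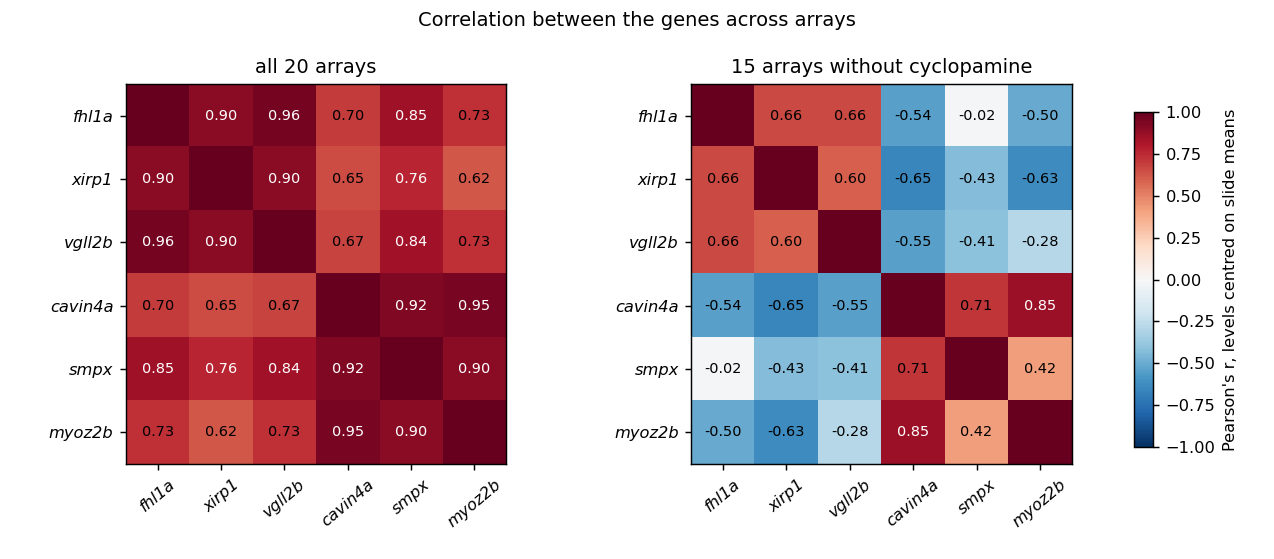
Pearson's r between the log2 levels of the 6 genes, centred on slide means, over all 20 arrays (left) and over the 15 arrays without cyclopamine (right). All pairs are positive on the left, which the choice of genes that fell under cyclopamine favours. On the right the pairs between fhl1a, xirp1 and vgll2b and the other genes lie between -0.65 and -0.02.

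The level of cavin4a varied with that of fast muscle genes, although how many of all genes did so as closely was not counted. The mean used here gives each marker's log2 level the same weight, so the most variable markers move it most. Among them is pvalb1, with an SD of 1.76 to 2.44 in ethanol, SANT-2 and GANT-61. The dim marker tnni2a.1 is also part of the mean. The mean log2 level of 11 fast muscle markers, among them parvalbumin and fast troponin genes, was correlated with cavin4a at r = 0.96 (Spearman's rho = 0.95) over the 15 arrays without cyclopamine, with levels centred on slides. Without the 2 arrays farthest from the median, r was 0.95, and with slide and treatment both removed it was 0.94. Between SANT-2 and GANT-61, arrays of the same replicate number, 4 of 5 pairs of them on a shared slide, deviated together (lowest correlation of deviations 0.14). With ethanol they did so at some numbers only, from -0.01 to 0.75 for SANT-2 and -0.05 to 0.60 for GANT-61. The 15 arrays are thus not all independent, and the relation was tested within replicate numbers. With levels centred on the mean of each number, r was 0.90 and rho 0.86. The exact two-sided permutation test, which exchanged arrays within numbers, gave p = 0.00399 for r and 0.0112 for rho. After adjustment over the 6 genes these were 0.0239 and 0.0671, so r passed and rho did not. The test was not planned in advance, and the adjustment does not cover the slow muscle and heart markers, which were also compared. Arrays exchanged within a number had different treatments, so treatment differences enter these p-values. Without the 2 farthest arrays r was 0.84, and with treatment removed as well as number it was 0.83.

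For myoz2b, r with the fast muscle mean was 0.76 when centred on slides and 0.78 when centred on replicate numbers, where the adjusted exact permutation p was 0.103 for r and 0.267 for rho. For smpx, r was 0.72 when centred on slides but 0.20 when centred on numbers (adjusted exact permutation p = 0.735). Its relation with the fast muscle mean thus did not hold within replicate numbers. When centred on slides, r was -0.46 for fhl1a, -0.59 for xirp1 and -0.46 for vgll2b. When centred on numbers it was -0.26, -0.44 and -0.03, with adjusted exact permutation p of 0.429, 0.429 and 0.92. With number and treatment removed, r was 0.89 for myoz2b, 0.14 for smpx, -0.04 for fhl1a, -0.75 for xirp1 and 0.18 for vgll2b.

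Centred on slides, the mean of 7 slow muscle markers had r = 0.91 with cavin4a, 0.82 with smpx and 0.74 with myoz2b over the same arrays, against -0.31 with fhl1a, -0.48 with xirp1 and -0.41 with vgll2b. The mean of 9 heart markers had r = 0.82 with cavin4a and -0.23 with fhl1a. With the 75th percentile of the array, r ranged from -0.16 to 0.34 over the 6 genes, and with the number of probes above background from -0.15 to 0.32.

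Within the 5 cyclopamine arrays, cavin4a and the fast muscle mean had the same order, with replicate 2 lowest, then 5, 3 and 1, and replicate 4 highest. smpx and myoz2b were lowest in replicates 2 and 5 and highest in replicate 4. fhl1a ran nearly the other way, being lowest in replicates 1 and 4 and highest in replicates 5 and 2. On these arrays the summed linear level of the 11 fast muscle markers ran from 53.1 to 195 times the 75th percentile, compared with 72.1 to 209 in ethanol, and none of the 11 was called. The summed level of the 7 slow muscle markers ran from 11.0 to 46.2, below its range of 133 to 207 in ethanol. Of the 7, 6 (85.7%) were called lower, against 0.840% of all genes. The sum rests mainly on myl10 and myl13, at mean log2 levels of 6.81 and 5.25 in ethanol, the next being tnnc1b at 2.35. These lists were chosen with earlier results of these data known. The slow sums of 147 to 211 in SANT-2 and 145 to 169 in GANT-61 overlapped that of ethanol. The 9 heart markers summed to 5.73 to 8.20 under cyclopamine and 7.28 to 10.4 in ethanol, with none called. Over all genes 0.875% were called, so counts of 0 among 11 fast muscle and 9 heart markers are near the background. The part of these cell types in the falls of the 6 genes was not tested.

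**Figure D4:**
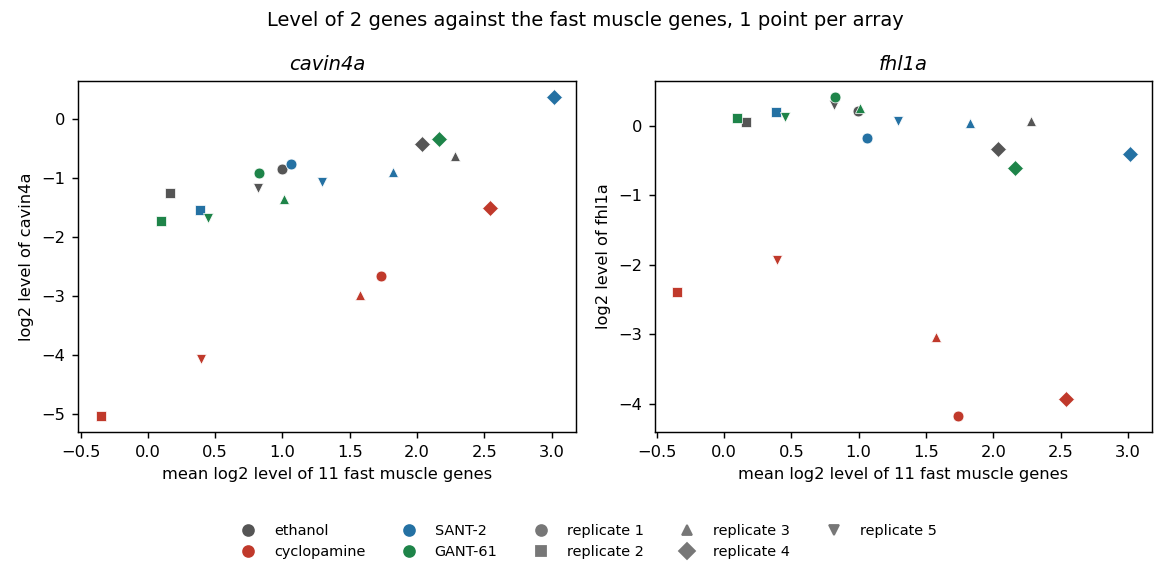
Log2 level of cavin4a (left) and fhl1a (right) against the mean log2 level of 11 fast muscle markers, 1 point per array, coloured by treatment and shaped by replicate number. In cavin4a both the cyclopamine points and the others rise with the fast muscle mean, whereas the lowest fhl1a points, at -4.18 and -3.93, lie at high fast muscle means.

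The named genes with the most similar pattern over the 20 arrays, by slide-centred r, differed between the members. For fhl1a they were actc2 (r = 0.99), foxd5 (0.98) and nkx3-2 (0.98), and actc2 and foxd5 (0.96 each) were also closest to vgll2b, followed by epha2a (0.95). For xirp1 they were myod1, the myogenic transcription factor (0.94), the tetraspanin gene cd151 (0.93) and fgf8b (0.92). For smpx they were hspb9l (0.97), the troponin C gene tnnc1b (0.96) and fbp2 (0.95), and for myoz2b fbp2 (0.95), the troponin I gene tnni4b.2 (0.95) and arpp21 (0.94). For cavin4a they were en1a, sst2 and cthrc1a, at 0.94 each. All the genes named here were themselves lower under cyclopamine than in ethanol, by -4.46 (hspb9l) to -0.48 (cthrc1a) on the log2 scale. The members were chosen for such a fall, so high r with these genes over the 20 arrays follows largely from the choice.

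Without the cyclopamine arrays none of these names recurred. The genes closest to cavin4a over the remaining 15 arrays were the fast troponin T gene tnnt3a, the mitochondrial carrier gene slc25a4 and the parvalbumin gene pvalb2, at r = 0.98 each. Under cyclopamine their own changes were 0.21, 0.63 and -0.01. Since tnnt3a and pvalb2 belong to the 11 fast muscle markers, they are no separate sign of the relation of cavin4a with those markers. The genes closest to fhl1a were zgc:101664 (0.93), nip7 (0.88) and mis12 (0.88). For smpx they were lsm1 and micu2 (0.92 each) and mrpl14 (0.90), for myoz2b pip5k1bb and dcun1d1 (0.90 each) and pkmb (0.89). For xirp1 they were gfus.1 (0.88), nom1 (0.82) and polr2eb (0.81), and for vgll2b nrbf2b (0.88), srm (0.82) and trpm7 (0.81). Of these genes named for the other members, pkmb changed by -1.67 under cyclopamine. The rest changed by -0.34 (zgc:101664 and gfus.1) to 0.20 (micu2).

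In the limma fit without blocks, no close relative of the 6 genes was called under cyclopamine, but fhl2a was called in other fits. Of 22 listed paralogues 13 were on the array and 9 were bright enough to test. Without blocks 0 of these 9 were called, while 0.875% of all genes were. A count of 0 among 9 is near that background. cavin4b, the other muscle cavin, differed from ethanol by -0.76 ± 0.51 (SE, log2), and fhl2a by -0.73 ± 0.17 (adjusted p = 0.0544). With slide or replicate number as a block, fhl2a passed at an adjusted p of 0.00103 and 0.00338. The replicate block fits the pairing of these groups by number (lowest correlation of deviations 0.46), although all 5 pairs also shared a slide. In all, fhl2a was called in 7 alternatives and not in 13. Among the 7 were quantile scaling (adjusted p = 0.0398), the trended robust spread (0.0446) and the fit without slide 2 (0.0317). Without blocks, fhl1b differed by 0.20 ± 0.15 and fhl2b by 0.04 ± 0.21. Among the myozenins, myoz2a differed by -0.07 ± 0.38, myoz1a by -0.24 ± 0.28 and myoz1b by -0.43 ± 0.84. cavin2b, at 0.05 ± 0.10, and vgll4l, at 0.08 ± 0.12, had narrow errors around 0. The difference between a member and its relative was not tested.

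Among 26 other Z-disc genes that could be tested, of 66 listed, 2 (7.69%) fell under cyclopamine and 0 rose, while 0.840% of all genes were called lower. synpo2lb, which encodes a synaptopodin-like protein of the Z-disc, fell by 0.77 ± 0.15 on the log2 scale (adjusted p = 0.00878). pdlim5b, which encodes a PDZ and LIM protein that binds alpha-actinin, fell by 0.95 ± 0.19 (adjusted p = 0.0142). The alpha-actinin gene actn2b had the lowest value of the list at -1.58 ± 0.38, with an adjusted p of 0.0653, and was singled out after its value was seen. The median of the 26 was -0.42, against 0.03 over all genes, and 20 of the 26 (76.9%) had a negative value, against 43.0% of all genes. This lean was not particular to the Z-disc list. Negative values were also found in 7 of 9 heart (77.8%), 8 of 11 fast muscle (72.7%) and 7 of 7 slow muscle markers. They were found in 2 of 4 notochord and 2 of 4 neuron markers, and in 0 of 3 epidermis and 0 of 3 red blood cell markers.

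The number of other Z-disc genes called was 5 with slide as a block, 7 with replicate number as a block and 0 with the normexp correction or when the cyclopamine and ethanol arrays were fitted alone. It was 1 without ethanol replicate 4 or without cyclopamine replicate 2, pdlim5b being the gene lost. Over all genes the calls rose from 100 without blocks to 248 with slide and 256 with replicate number as a block. They fell to 57 with normexp and 53 with the compared groups alone. The share of 0.840% given above belongs to the fit without blocks and is no measure for the counts of other fits. In SANT-2 and GANT-61 against ethanol 0 of the 26 were called, and the medians were 0.0093 and -0.11.

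Of 13 other caveola genes that could be tested, 0 were called under cyclopamine, where 0.875% of all genes were, and their median was 0.04. A count of 0 among 13 is near that background. cav1 differed by 0.15 ± 0.25 and the muscle caveolin cav3 by 0.08 ± 0.29. Of 18 other cofactors and muscle regulators, 1 (5.56%) fell, against 0.840% of all genes, and it was myod1, at -0.79 ± 0.15 (adjusted p = 0.00603), and the median of the 18 was -0.07. The lowest value of the 18 was that of smyd1a, at -0.84 ± 0.40, which was not called. Of the 18, 9 (50%) had a negative value, against 43.0% of all genes. Among these 9 was myf6, at -0.39, which passed the filter on dim probes through ethanol alone, so a negative value was favoured. It was well above background on 4 ethanol, 1 cyclopamine, 3 SANT-2 and 3 GANT-61 arrays. The regulators myog and myf5 differed by -0.17 ± 0.17 and -0.18 ± 0.26, and the TEAD gene tead1a by 0.14 ± 0.33, none of them called. No gene of either list was called under SANT-2 or GANT-61.

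**Figure D5:**
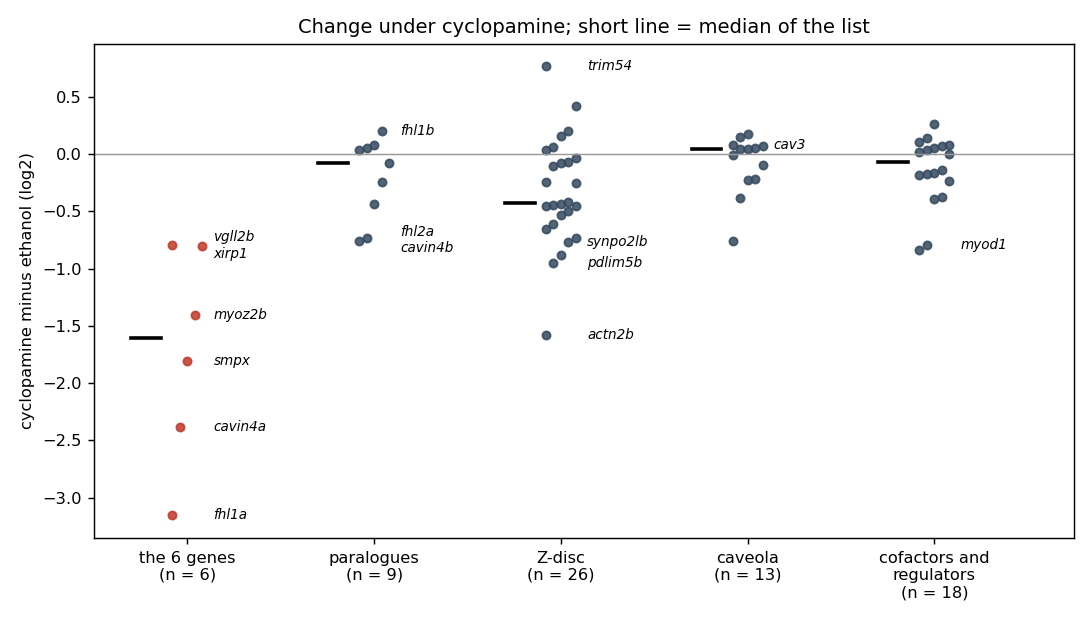
Change under cyclopamine against ethanol (log2, vertical axis) for the 6 genes, which this change chose, and for the tested members of 4 lists of related genes (horizontal axis), with 1 point per gene and a short line at the median. Medians are -0.42 for the Z-disc list and 0.04 for the caveola list, and the 4 largest falls shown among the 6 genes run from -3.16 to -1.41.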

How the data were processed

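Trizol-extracted RNA was amplified and given a Cy3 label, per the labels. Background subtraction and detrending of the deposited intensity values was done in Feature Extraction 10.1.1.1 from Agilent, per the file headers, with no scaling between arrays. The authors' normalized log2 values (r = 0.998 to 1.00 with the scanner's own) served as an alternative only.

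Intensities were taken to log2, outlier spots were dropped, and each array's 75th percentile was subtracted. Probes were named through the RefSeq gene table of assembly GRCz12tu, where 9185 of 14694 matched a symbol. A gene was tested if well above background on at least 4 of 5 arrays of 1 group. All groups were fitted in 1 limma model (limma 3.58.1, R 4.3.3), with two-sided p-values adjusted by Benjamini-Hochberg over 11433 genes, and a call is an adjusted p under 0.05. The p-values of this fit set each difference against the spread between replicates of pooled embryos within the 4 groups. That spread includes any differences between slides and replicate numbers, since the fit had no terms for them. On simulated data for the cyclopamine comparison (11433 genes), 24% of falls of 0.5 (log2) were recovered, 62% of 1, 76% of 1.5 and 92% of 2. The simulated arrays were independent, without slide or replicate structure, and 50 genes were changed for each size. These rates do not carry over to the SANT-2 and GANT-61 comparisons, where few or no genes were called.

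Arrays of the same replicate number deviated together for cyclopamine and ethanol (lowest correlation of deviations 0.46) and for SANT-2 and GANT-61 (0.14). They did not all do so for SANT-2 or GANT-61 and ethanol (-0.01 and -0.05). The deviations were not adjusted for slide. All 5 pairs of cyclopamine and ethanol, and 4 of 5 of SANT-2 and GANT-61, shared a slide, so number and slide cannot be told apart there. The 6 genes, the lists and the naming rule were chosen with earlier results of these data known. The rule named all paralogues tested, the genes of a list called against ethanol or, where none was, the 2 brightest in ethanol, and the 3 most similar genes per member. cav3, myog, myf5, smyd1a, tead1a and actn2b were named after their values were seen. Alternatives were quantile and median scaling, normexp (offset 50), the deposited table, no filter, slide or replicate blocks, the compared groups alone, a trended robust spread, leaving out each array, and leaving out slide 2. Normexp with each spot's local background was set aside: on 3 arrays, 3 to 10 spots had a background above their signal, which upset the fit. With it the cyclopamine difference was -1.40 for fhl1a, -0.93 for cavin4a, -0.41 for xirp1 and -0.53 for vgll2b. It was -0.28 ± 0.52 (SE) for smpx and -0.06 ± 0.50 for myoz2b, so these falls were within their error. Correlations with the fast muscle mean were tested with all 7776 permutations of arrays within replicate numbers, two-sided and adjusted over the 6 genes. That test was not planned in advance.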

Additional observations from a re-analysis of the deposited data

Results flagged for a closer look

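The level of smpx on GANT-61 replicate 2 was -2.53 on the log2 scale, while the other 4 GANT-61 arrays lay between -1.89 and -1.64. Its gap to the nearest array was 0.721 of the whole range of the group. Of 24 sets of 5 values examined this was the 1 that stood apart in this way, and chance marks about 1 in 20. Replicate 2 was the lowest array for smpx in the other groups too.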

How the results depend on the processing

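Under 120 alternatives (20 per gene) the 6 genes stayed lower in cyclopamine than in ethanol, by -3.44 to -0.70 (log2). Normexp with local background, which was set aside, is not among these. It gave smaller falls, of -1.40 (fhl1a) to -0.06 (myoz2b). With normexp on the array's median background and its offset of 50, smpx moved from -1.81 to -1.28 and myoz2b from -1.41 to -0.97, by more than their spread. None of the 6 was called in any of 360 alternatives for SANT-2 and GANT-61 against ethanol or each other (lowest adjusted p 0.282), but small differences changed sign. For GANT-61 against ethanol, fhl1a was -0.0098 with quantile scaling, -0.081 with median scaling, -0.036 with normexp, -0.0080 in the authors' table and -0.0093 without slide 2, whose signal was lowest. smpx was -0.020, -0.065, -0.024 and -0.096 with quantile scaling, median scaling, the authors' table and slide as a block, and vgll2b 0.016 with normexp. myoz2b in SANT-2 against ethanol was 0.16 without slide 2. xirp1 in SANT-2 against GANT-61 was -0.0015 with slide as a block and -0.10 without slide 2. myoz1b under cyclopamine was 0.20 with normexp.

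Leaving out 1 array gave -0.098 to 0.17 (fhl1a), -0.069 to 0.17 (smpx) and -0.11 to 0.043 (vgll2b) for GANT-61, and -0.20 to 0.28 (cavin4a) and -0.11 to 0.29 (smpx) for SANT-2. SANT-2 minus GANT-61 was -0.13 to 0.27 (smpx), -0.066 to 0.11 (xirp1) and -0.14 to 0.017 (vgll2b). Under cyclopamine, cav1 was -0.027 to 0.24, fhl2b -0.11 to 0.22, myoz1a -0.38 to 0.039, myoz1b -0.97 to 0.24 and myoz2a -0.27 to 0.19.

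The other Z-disc genes called under cyclopamine, 2 in the report, were 4 with quantile scaling or without slide 2, 5 with slide as a block, 7 with the replicate block, 0 with normexp or the compared groups alone, and 1 to 3 leaving out 1 array. Over all genes the 100 calls under cyclopamine became 57 with normexp, 248 with slide as a block, 256 with the replicate block and 53 with the compared groups alone. The 18 for GANT-61 became 196, 138 and 1 in the last 3 settings, 99 without slide 2 and 11 to 31 leaving out 1 array (11 without ethanol replicate 2, 31 without ethanol replicate 4). The 30 for SANT-2 against GANT-61 became 18 with normexp, 113 with slide as a block and 116 with the replicate block. The causes were not tested. The replicate block, which pairs cyclopamine with ethanol, also brought fhl2a to an adjusted p of 0.00338 and changed no call of the 6 genes. Normexp on each spot's mean signal was not run, since that column was not used here, and the median signal took its place, a choice made after seeing the data.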
